A study of Mus musculus with 21 samples.

Results

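The proteasome genes were taken as every row of the deposited count table whose symbol begins with Psm, goes on with a letter from a to g and ends in digits. The rule used no measured value, and it gave 48 of the table's 24054 rows. All 48 passed the filter on low counts that left 14135 genes for testing. They comprised 8 alpha subunits and 7 constitutive beta subunits of the core particle, 3 immunoproteasome beta subunits (Psmb8, Psmb9 and Psmb10) and the thymoproteasome subunit Psmb11. The others were 6 ATPases and 11 further subunits of the regulatory particle, 5 activators and inhibitors, and 7 assembly chaperones.

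The libraries came from left ventricle myocardium of C57BL/6J mice, sequenced from total RNA with 1 library per ear-tagged animal. TAC (transverse aortic constriction, surgery that overloads the left ventricle with pressure) with sildenafil, an inhibitor of the cyclic GMP phosphodiesterase PDE5A, gave 5 libraries (TAC+PDE5A-I). TAC with PF-04449613, an inhibitor of the cyclic GMP phosphodiesterase PDE9A, gave 6 (TAC+PDE9A-I), TAC with no drug gave 5, and sham surgery with no drug gave 5. Both drugs were given for 4 weeks from 1 week after surgery. No genetic change is named for any group, and the sources used here give neither age nor dose. The ear tag series differed between groups. It was 100, 100, 100, 600 and 600 in sham libraries 1 to 5 and 100, 100, 500, 600 and 600 in TAC libraries 1 to 5. In TAC+PDE5A-I it was 500, 500, 600, 600 and 600, and in TAC+PDE9A-I 100, 500, 500, 500, 500 and 600. Thus TAC+PDE9A-I library 1 was the only library of the 100 series given an inhibitor.

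The proteasome is the chamber in which cells degrade proteins tagged with ubiquitin. Its core particle is a barrel of alpha and beta rings, with the proteolytic sites on Psmb5, Psmb6 and Psmb7, and the regulatory particle at its ends binds, unfolds and feeds in the substrate. Interferon induces Psmb8, Psmb9 and Psmb10, which take the places of Psmb5, Psmb6 and Psmb7 in newly assembled cores and shift the peptides made towards those presented by MHC class I; the PA28 activator, made of Psme1 and Psme2, is induced with them. In the heart the proteasome clears damaged and misfolded contractile proteins, and the transcription factor NRF1 (gene Nfe2l1) restores its subunits when capacity falls short.

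Among the genes that differed most between libraries were Psmb8, Psmb9, Psmb10, Psme1 and Psme2. Short stretches of the promoter regions are shown for all of these but Psme2, to set the genes' known interferon response beside the sequence. They are read 5′ to 3′ on the gene's strand from RefSeq promoter windows (GRCm38.p6, from 250 bases before to 50 bases after a start site). The stretches of Psmb8, Psmb9 and Psme1 are limited to 30 bases because GENCODE M21 places untranslated exons of other transcripts there. Capitals mark the gamma-activated site letters TTCNNNGAA in Psmb8 (chr17:34198088-34198117, plus strand), the NRF1 and antioxidant response core TGANNNNGC in Psmb9 (chr17:34187371-34187400, minus strand) and the interferon response core (GAAA and GAAA with any 2 bases between), here on the opposite strand, in Psme1 (chr14:55578493-55578522, plus strand). The Psmb10 stretch (chr8:105938445-105938642, minus strand) is the part of its window outside annotated exons and holds none of these, nor the NF-kappaB core (GGG and CC with any 5 bases between).
Psmb8: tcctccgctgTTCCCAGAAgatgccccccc
Psmb9: ccttgcgcgaTGATGGGGCggggcctcagt
Psme1: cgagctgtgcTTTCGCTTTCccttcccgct
Psmb10: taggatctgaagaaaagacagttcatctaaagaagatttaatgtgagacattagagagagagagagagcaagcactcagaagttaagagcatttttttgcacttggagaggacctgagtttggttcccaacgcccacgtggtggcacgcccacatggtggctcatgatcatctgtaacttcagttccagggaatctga

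The motifs were searched on both strands in the 43 windows of the 40 proteasome genes that the RefSeq table holds, and none of the 4 motifs contains another. TGANNNNGC was in 25 of the 43 windows and in 41.3% of all 32851 windows of this length. The interferon response core was in 5 of the 43 (Psmb3, Psmd4, Psmd9, Psme1 and Psmg4) and in 3.44% of all. TTCNNNGAA was in 3 of the 43 (Psmb8, Psmd2 and Psmg1) and in 8.30% of all, and the NF-kappaB core in 23 of the 43 and in 50.8% of all. The Psmb8 match runs from base 97 to base 89 before the start site, and the Psme1 match from base 10 to base 19 after it. Neither the interferon response core nor TTCNNNGAA was in the windows of Psmb9, Psmb10 or Psme2. The Psmb9 stretch also holds an NF-kappaB core, not in capitals, from base 55 to base 46 before the start site. The matches are letters in a window, and binding was not measured.

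Total counts per library, in units of 1000000, ran from 22.7 to 41.0. Rn45s, a ribosomal RNA precursor, took at most 0.278% of the counts in 19 libraries, 0.326% in TAC+PDE9A-I library 1 and 0.416% in TAC+PDE9A-I library 4. Fibroblast markers rose in TAC relative to sham (6 of 6 tested), as did B cell markers (5 of 5), and 5 of 8 cardiomyocyte markers fell. Of 7 macrophage markers 1 fell, and the leukocyte, endothelial, erythroid and T and NK cell markers tested had no called gene. In whole tissue, fewer cells of a type and less RNA per cell cannot be told apart. Summed over the 8 cardiomyocyte markers, the libraries held 116016 to 204591 TMM-scaled CPM (counts per 1000000).

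Levels are CPM scaled between libraries by TMM, and genes are set beside each other only per kilobase of annotated exon. On that scale the constitutive beta genes covered 20.4 to 82.4 CPM per kb in sham hearts, the ATPase genes 17.2 to 78.9 and the other regulatory particle genes 11.4 to 71.6. Psme4, which encodes the activator PA200, had the highest level, 104 ± 10.1 CPM per kb in sham hearts (SD, n = 5). Among core genes the proteolytic subunits Psmb5, Psmb6 and Psmb7 were at 82.4, 61.5 and 41.4 CPM per kb in sham hearts. Per kilobase of coding sequence, a length chosen after seeing the data, their order turned round (93.5, 161 and 171 CPM per kb), and Psmb6 and Psmb7 were above Psme4 (158). The medians were 29.8 CPM per kb over the 8 alpha genes, 58.7 over the 7 constitutive beta genes, 44.8 over the 6 ATPase genes, 24.4 over the 11 other regulatory particle genes and 5.82 over the 7 chaperone genes.

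Psmb10 (21.2 CPM per kb) ranked at place 28 of the 48 in sham hearts, Psmb8 (4.26) at place 41 and Psmb9 (1.21) at place 46. Psmb8 reached 5.17% of the level of Psmb5, Psmb9 1.97% of Psmb6 and Psmb10 51.3% of Psmb7 per kilobase of exon. Per kilobase of coding sequence these shares were 18.6%, 4.19% and 25.9%. The size of the gap between an immunoproteasome subunit and its counterpart thus depended on the length used, and each was below its counterpart with both. The lowest places were held by Psma8, an alpha subunit of the testis, with 13 to 55 counts per library, and by Psmb11, the beta subunit of thymic cortical epithelium, with 0 to 13 counts per library.

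Replicates of 1 group were close for the core genes. The coefficient of variation over the sham libraries had a median of 5.78% over the alpha genes, 5.74% over the constitutive beta genes, 4.79% over the ATPase genes and 4.20% over the other regulatory particle genes. It was 6.84 to 9.31% for the immunoproteasome genes. Single libraries stood at the edge of their group for many genes at once: TAC library 5 was the highest of its group for 22 of the 48 genes, TAC+PDE5A-I library 3 for 29 and TAC+PDE9A-I library 2 for 25. TAC+PDE9A-I library 4 was the lowest of its group for 27 of the 48, and sham library 5 likewise for 27.

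In TAC against sham neither group had a drug, so the surgery is the labelled treatment that differs. The ear tag series differed too, since TAC library 3 was of the 500 series and no sham library was. Of the 48 proteasome genes, 3 rose (Psmc1, Psma5 and Psmd13) and 3 fell (Psmc2, Psmb6 and Psmb3) at an adjusted p under 0.05 in edgeR's quasi-likelihood test. The 6 called genes are 12.5% of the 48, and 25.2% of all genes tested were called in this comparison (12.2% higher and 13.0% lower). Each called change was small, between 0.17 and 0.20 on the log2 scale in size. The median log2 fold change of the 48 was -0.03, and its median size was 0.10 against 0.20 over all genes tested. The 95% interval of the fold change lay wholly within 1.25-fold for 34 of the 48 proteasome genes (70.8%) and for 32.0% of all genes tested. An unadjusted p under 0.05 was found for 14 of the 48 and for 39.6% of all genes tested. With a term for the ear tag series (the leading digit of the ear tag), Psmc1 and Psmc2 alone were called. Over all 14135 genes tested, that fit called 2681 and the main fit 3558.

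The rising and falling genes did not divide by particle. Psmc1 and Psmc2 encode neighbouring ATPases of the ring that unfolds substrates, and Psmc1 rose while Psmc2 fell. Psmc1 (chromosome 12, 100110154 to 100123405) had 122, 129.7, 117.7, 122 and 127 CPM in TAC libraries 1 to 5, against 110.1, 106, 114, 112 and 100.5 CPM in sham libraries 1 to 5. Every TAC library lay above every sham library, and the log2 fold change was 0.19 (SE 0.053, adjusted p = 0.0160). Psmc2 (chromosome 5, 21785283 to 21803787) had 72.4, 76.8, 74.4, 71.2 and 83.3 CPM in TAC libraries, against 86.5, 84.1, 87.1, 88.2 and 86.1 CPM in sham libraries. Every TAC library lay below every sham library, with TAC library 5 closest to them, and the log2 fold change was -0.19 (SE 0.058, adjusted p = 0.0220). The 4 other ATPases (Psmc3 to Psmc6) were not called, with log2 fold changes from -0.11 to 0.08.

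In the core particle, Psma5, an alpha ring subunit, rose to 56.3 ± 3.83 CPM in TAC hearts, against 48.9 ± 2.88 CPM in sham hearts (SD, n = 5 each; log2 fold change 0.20, adjusted p = 0.0279). TAC library 2, at 50.3 CPM, lay inside the sham range of 45.2 to 51.9 CPM, and the other TAC libraries lay above it. The 7 other alpha genes were not called, and the largest estimate among them, 0.24 for Psma8, rested on few counts (adjusted p = 0.605). Of the 7 constitutive beta genes 6 had negative estimates and 2 were called. Psmb6, which carries the caspase-like site, fell to 100.4 ± 6.91 CPM in TAC hearts, against 115 ± 6.61 CPM in sham hearts (log2 fold change -0.20, adjusted p = 0.0338). Psmb3, a structural subunit, fell to 61.9 ± 5.12 CPM in TAC hearts, against 70.7 ± 4.48 CPM in sham hearts (log2 fold change -0.19, adjusted p = 0.0386). TAC library 5, at 112 CPM for Psmb6 and 71.0 CPM for Psmb3, was inside the sham range for both, and the 4 other TAC libraries were below it.

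Psmb2 had the largest estimate among constitutive beta genes without being called, -0.20 (67.7 ± 3.50 CPM in TAC hearts and 77.9 ± 6.33 CPM in sham hearts, adjusted p = 0.0656); DESeq2 called it lower (adjusted p = 0.0493), as did edgeR on the TAC and sham libraries alone (adjusted p = 0.0404). For the catalytic Psmb5, which carries the chymotrypsin-like site, the estimate was -0.01 (95% interval -0.15 to 0.13), with 73.5 ± 4.41 CPM in TAC hearts and 74.1 ± 4.91 CPM in sham hearts. For Psmb7, which carries the trypsin-like site, it was -0.10 (95% interval -0.25 to 0.05), with 132 ± 9.49 CPM in TAC hearts and 142 ± 7.83 CPM in sham hearts. Summed over the 7 constitutive beta genes, the level was 640 ± 36.7 CPM in TAC hearts and 688 ± 37.2 CPM in sham hearts, ranges that overlap.

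Among the 11 regulatory particle genes that are not ATPases, Psmd13 alone was called. It encodes a lid subunit and rose to 61.8 ± 3.36 CPM in TAC hearts, against 55.1 ± 1.75 CPM in sham hearts (log2 fold change 0.17, adjusted p = 0.0360); its exons overlap those of Sirt3 on the opposite strand. Psmd8, another lid subunit, had the largest estimate of this group, 0.37 (SE 0.139, adjusted p = 0.0534). It was called higher by DESeq2 (adjusted p = 0.0349) and by edgeR on the TAC and sham libraries alone (adjusted p = 0.0101), and in 4 of the 7 alternative settings in all. Psmd8 stood at 120.0, 104, 129.7, 144 and 106 CPM in TAC libraries 1 to 5, against 102, 89.6, 96.4, 93.8 and 85.0 CPM in sham libraries 1 to 5. The groups did not overlap, but the TAC libraries were spread more widely than the sham libraries. The deubiquitinase Psmd14 was at 55.9 ± 5.77 CPM in TAC hearts and 51.5 ± 2.16 CPM in sham hearts, and the ubiquitin receptor Psmd4 at 98.5 ± 5.87 CPM in TAC hearts and 93.4 ± 2.54 CPM in sham hearts, with neither called.

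None of the 5 activators and inhibitors was called by edgeR; the unadjusted p was under 0.05 for 1 of them, Psme1, which DESeq2 called lower. Psme1, the alpha chain of the PA28 cap, had the largest negative estimate of all 48 genes, -0.55 (SE 0.206, adjusted p = 0.0556). Its levels were 64.3, 72.1, 52.2, 50.3 and 66.0 CPM in TAC libraries 1 to 5, against 95.2, 77.3, 84.9, 100.1 and 88.3 CPM in sham libraries 1 to 5. All TAC libraries lay below all sham libraries. Its partner chain Psme2 was at 36.0 ± 2.12 CPM in TAC hearts and 39.1 ± 2.56 CPM in sham hearts (log2 fold change -0.12, 95% interval -0.49 to 0.25). Of the 7 assembly chaperones none was called by edgeR or DESeq2, with an unadjusted p under 0.05 for 1. That gene, Psmg1, which helps build the alpha ring, had their largest estimate, -0.24 (11.7 ± 1.72 CPM in TAC hearts and 13.7 ± 1.24 CPM in sham hearts, adjusted p = 0.106).

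In all, 6 of the 48 genes had TAC and sham groups without overlap (Psmb10, Psmb11, Psmc1, Psmc2, Psmd8 and Psme1), 12.5% beside 16.5% of all genes tested. Psmb11 was at 0.225 to 0.447 CPM in TAC libraries and 0.105 to 0.194 CPM in sham libraries (adjusted p = 0.0708), which is at most 13 counts in a library. Psmc1 was called in all 7 alternative settings and in all 11 fits with 1 library left out. Psmc2 was called in 7 settings and 8 such fits, Psma5 in 6 and 8, Psmb6 in 6 and 5, Psmd13 in 5 and 6, and Psmb3 in 4 and 4. With TAC library 1, 3 or 4 left out no proteasome gene was called lower, and with TAC library 5 left out 6 were. Over all genes tested, in either direction, 2555, 2019 and 1781 were called without TAC library 1, 3 or 4. Without TAC library 5 it was 3908, and with every library 3558.

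**Figure D1:**
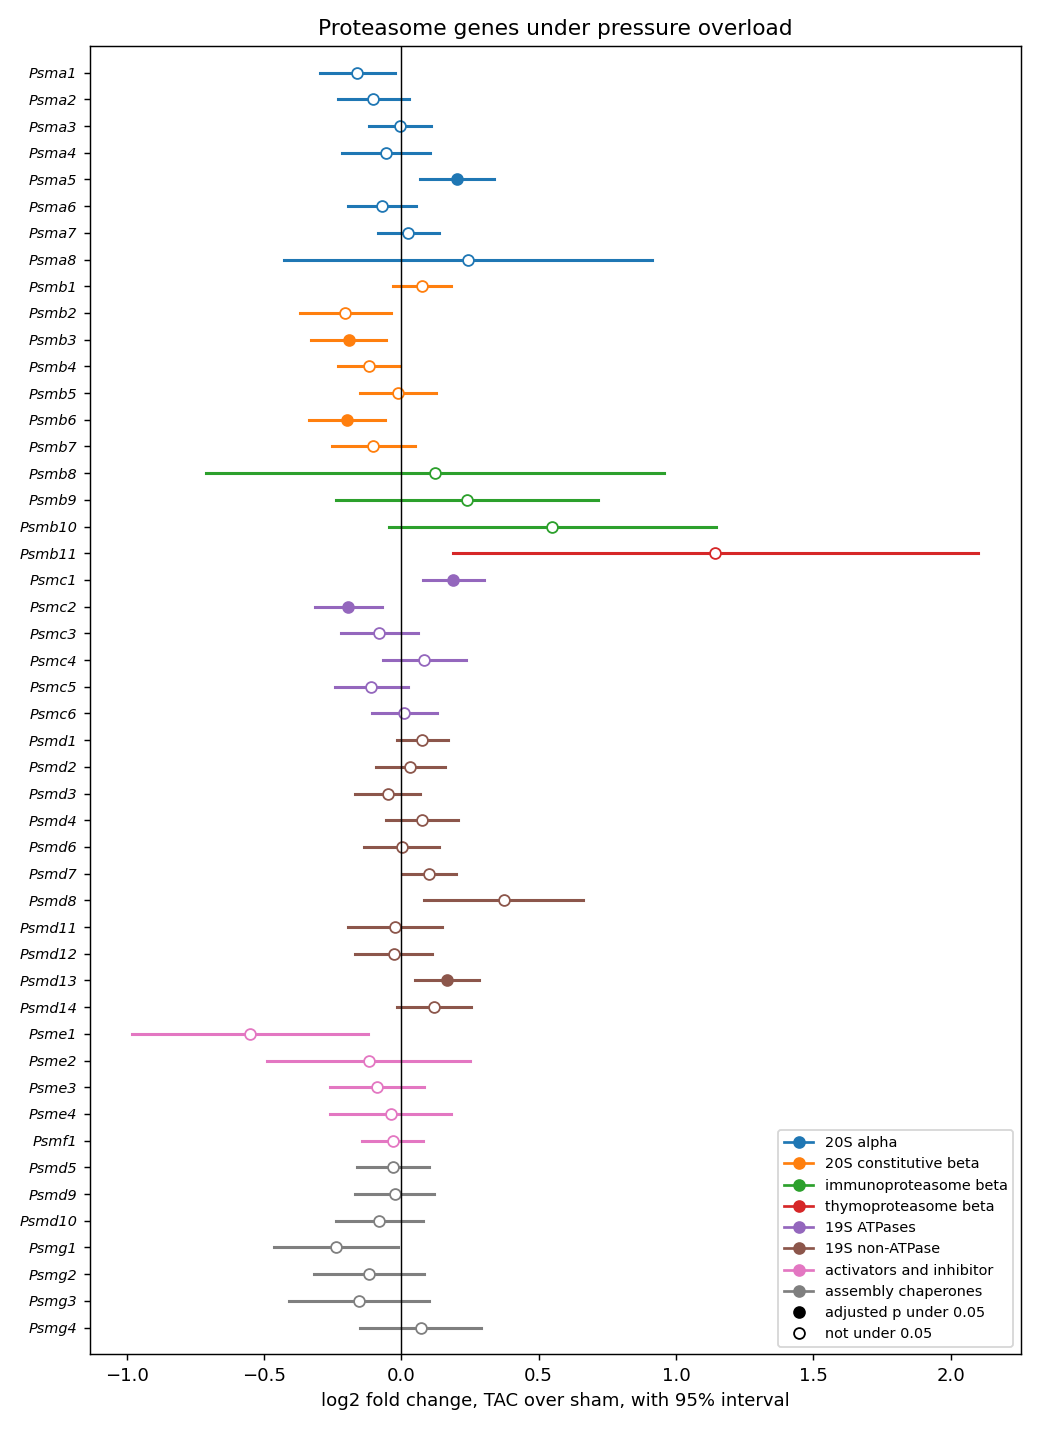
Log2 fold change of each of the 48 proteasome genes, TAC over sham (horizontal axis), with its 95% interval, grouped and coloured by role; filled points passed an adjusted p of 0.05 in edgeR's quasi-likelihood test over all genes. The 6 filled points lie between -0.20 and 0.20, and the widest intervals are those of Psmb11, Psmb8, Psma8, Psmb10, Psmb9 and Psme1.

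None of the 3 immunoproteasome genes was called in TAC against sham by edgeR, with no unadjusted p under 0.05, or by DESeq2. Psmb10 (chromosome 8, 105935735 to 105938444) had 52.6, 45.5, 55.3, 60.2 and 51.5 CPM in TAC libraries 1 to 5, against 39.4, 31.6, 39.1, 37.1 and 34.0 CPM in sham libraries 1 to 5. All TAC libraries lay above all sham libraries, and the log2 fold change was 0.55 (SE 0.285). It was not called in the fit over all 21 libraries (adjusted p = 0.156), which shares 1 estimate of the spread with TAC+PDE9A-I library 1, described below. Fitted on the TAC and sham libraries alone, Psmb10 was called (0.56, SE 0.083, adjusted p = 0.00152), and likewise with TAC+PDE9A-I library 1 left out, an alternative chosen after seeing the data (0.55, adjusted p = 0.00873). Psme1 was called lower in both of these fits (adjusted p = 0.00495 and 0.00784). Over all alternatives the adjusted p of Psmb10 ran from 0.00152 to 0.270 and that of Psme1 from 0.00495 to 0.145.

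Psmb8 (chromosome 17, 34197721 to 34201454) had 16.0, 16.3, 13.5, 17.2 and 15.3 CPM in TAC libraries, against 14.3, 13.6, 14.6, 13.6 and 16.0 CPM in sham libraries. The groups overlapped, with a log2 fold change of 0.12 (95% interval -0.71 to 0.96, adjusted p = 0.844). Psmb9 (chromosome 17, 34181987 to 34187764) had 5.46, 5.79, 4.56, 5.65 and 4.81 CPM in TAC libraries, against 4.80, 4.41, 3.87, 4.72 and 4.41 CPM in sham libraries. The groups overlapped here too, and the log2 fold change was 0.24 (95% interval -0.24 to 0.72, adjusted p = 0.457). Psmb9 and the peptide transporter Tap1 lie head to head and their annotated exons overlap on opposite strands. The library kit keeps strand, but the sources used here do not say whether the counting used it, so reads of Psmb9 and Tap1 in the overlap may not have been told apart; the same holds for Psmb8 with Gm20496 and Psme1 with Emc9.

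The ratio of an immunoproteasome subunit to the subunit it replaces was read in every library as a description, without a test. The log2 ratio of Psmb10 to Psmb7 was -1.32 ± 0.22 in TAC hearts and -1.97 ± 0.07 in sham hearts (SD, n = 5 each), with a lowest TAC value of -1.55 and a highest sham value of -1.90. The log2 ratio of Psmb9 to Psmb6 was -4.26 ± 0.21 in TAC hearts and -4.70 ± 0.14 in sham hearts, again without overlap, since the lowest TAC value was -4.54 and the highest sham value -4.60. Psmb6, on the lower side of that ratio, is itself among the genes that fell. The log2 ratio of Psmb8 to Psmb5 was -2.23 ± 0.19 in TAC hearts and -2.36 ± 0.15 in sham hearts, and the ranges overlapped.

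**Figure D2:**
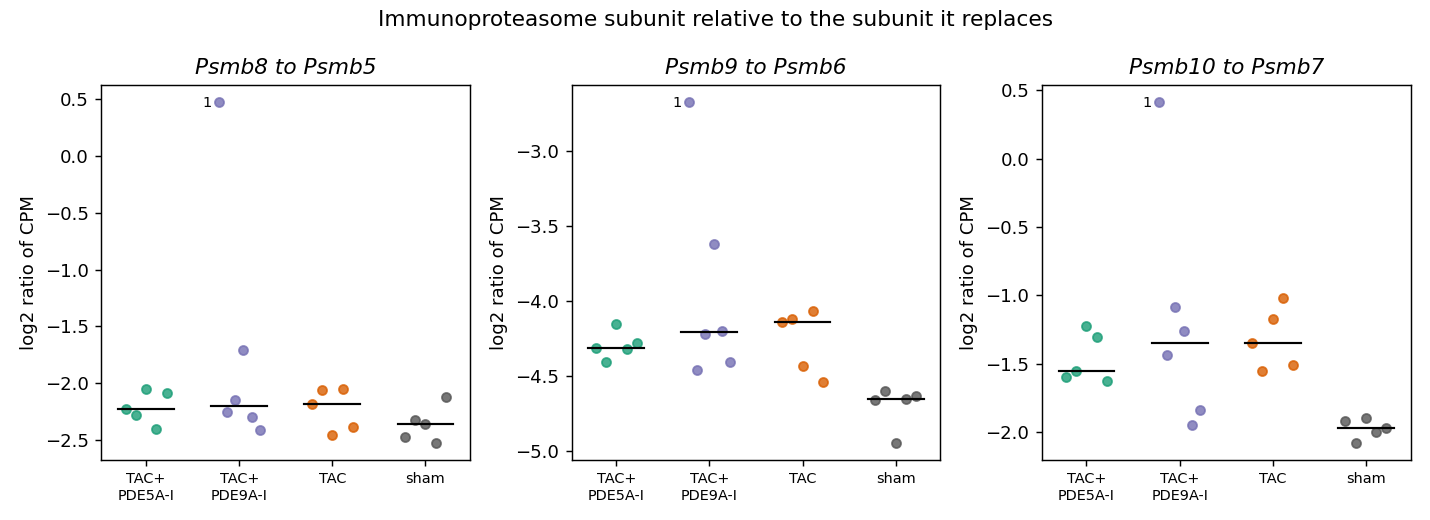
Log2 ratio of CPM of each immunoproteasome subunit to the subunit it replaces (vertical axis) in every library (points), with the group median as a line; "1" marks TAC+PDE9A-I library 1. Psmb10 to Psmb7 and Psmb9 to Psmb6 separate TAC from sham, Psmb8 to Psmb5 does not, and TAC+PDE9A-I library 1 is the highest point of all 3 panels.

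TAC+PDE5A-I against TAC and TAC+PDE9A-I against TAC ask what each inhibitor changed under overload. Both comparisons use the same TAC libraries. With sildenafil no proteasome gene was called in either direction by edgeR, where 0.0141% of all genes tested were called, or by DESeq2. Of all 14135 genes tested, DESeq2 called 8 in this comparison. No gene had groups without overlap (0.990% of all genes tested). The unadjusted p was under 0.05 for 1 of the 48, and for 5.17% of all genes tested. This was Psmc1, at 113 ± 4.78 CPM in TAC+PDE5A-I hearts and 124 ± 4.68 CPM in TAC hearts (log2 fold change -0.14, adjusted p = 0.947). The median size of the log2 fold change was 0.03 over the 48 genes and 0.09 over all genes tested. For 38 of the 48 the 95% interval lay within 1.25-fold, a share of 79.2% beside 47.3% of all genes tested.

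The immunoproteasome genes had wider intervals in that comparison. Psmb8 was at 15.8 ± 1.60 CPM in TAC+PDE5A-I hearts and 15.7 ± 1.37 CPM in TAC hearts (log2 fold change 0.01, 95% interval -0.82 to 0.83). Psmb9 was at 5.14 ± 0.50 CPM in TAC+PDE5A-I hearts and 5.26 ± 0.54 CPM in TAC hearts (log2 fold change -0.03, 95% interval -0.50 to 0.44). Psmb10 was at 48.9 ± 7.29 CPM in TAC+PDE5A-I hearts and 53.0 ± 5.39 CPM in TAC hearts (log2 fold change -0.12, 95% interval -0.71 to 0.47). Intervals of this width leave room for changes of over 1.25-fold either way. For Psmb5, Psmb6 and Psmb7 the log2 fold changes were -0.01, 0.00 and 0.01, with 95% intervals that lay between -0.15 and 0.17.

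With PF-04449613 no proteasome gene was called against TAC by edgeR or by DESeq2, where 0.00707% of all genes tested were called by edgeR. Of all 14135 genes tested, DESeq2 called 33 in this comparison. No gene had groups without overlap (0.509% of all genes tested). The unadjusted p was under 0.05 for 10 of the 48 and for 14.6% of all genes tested. In 6 of these the estimate was negative: Psma5, Psmc1, Psmc4, Psmd8, Psmd13 and Psmd14, from -0.11 to -0.29. Psma5, Psmc1 and Psmd13 had risen in TAC relative to sham, and both comparisons use the same TAC libraries. The 4 positive estimates were those of Psmb8 (0.83), Psmb9 (0.46), Psme1 (0.55) and Psme2 (0.36), the PA28 genes being named here after their values were seen. Psmb10 had an estimate of 0.30 (adjusted p = 0.636). Psmb5 was at 68.8 ± 6.44 CPM in TAC+PDE9A-I hearts and 73.5 ± 4.41 CPM in TAC hearts (SD, n = 6 and n = 5). Psmb6 was at 101 ± 9.08 CPM in TAC+PDE9A-I hearts and 100.4 ± 6.91 CPM in TAC hearts, and Psmb7 at 129.6 ± 15.5 CPM in TAC+PDE9A-I hearts and 132 ± 9.49 CPM in TAC hearts.

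The immunoproteasome values of this group were led by TAC+PDE9A-I library 1. It held 88.5 CPM of Psmb8, against 13.5 to 19.1 CPM in the 20 other libraries of the study, and 5.83 times the median of the 5 others of its group. Psmb9 stood at 14.9 CPM in it, against 3.87 to 7.31 CPM in the 20 others, and Psmb10 at 155 CPM, against 31.6 to 60.2 CPM. The PA28 genes went with them: Psme1 was at 164 CPM in that library, against 50.3 to 100.1 CPM in the 20 others, and Psme2 at 85.8 CPM, against 32.5 to 41.9 CPM. Psmg4, an assembly chaperone of the alpha ring, was the last of the 6 proteasome genes above all 20 others (6.47 CPM, against at most 6.35 CPM). The share of all genes tested that were above all 20 others in this library was not counted. TAC+PDE9A-I library 1 was singled out after its values were seen. Ranked by the log2 ratio to the median of the 5 other TAC+PDE9A-I libraries, Psmb8 was at place 20 of the 14135 genes tested. Psmb10 was at place 67, Psmb9 at place 109, Psme2 at place 199, Psme1 at place 229 and Psmg4 at place 1573.

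The constitutive counterparts did not share this pattern. In TAC+PDE9A-I library 1, Psmb5 was at 63.7 CPM, Psmb6 at 95.4 CPM and Psmb7 at 116 CPM, against medians over the 5 others of 67.3, 105 and 134 CPM. The log2 ratio of the CPM of Psmb8 to that of Psmb5, which is not corrected for gene length, was 0.475 in library 1 and at most -1.71 in each of the 5 other libraries of its group. Per kilobase of exon, Psmb8 reached at most 26.2 CPM per kb in this group, below the lowest Psmb5 value of 69.8 CPM per kb. This order depended on the length used. The annotated exons add up to 3381 bases in Psmb8 and 899 bases in Psmb5, the longest coding sequences to 828 and 792 bases. Per kilobase of coding sequence, Psmb8 was thus above Psmb5 in library 1. The log2 ratio of Psmb10 to Psmb7, likewise of CPM, was 0.416 in library 1.

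**Figure D3:**
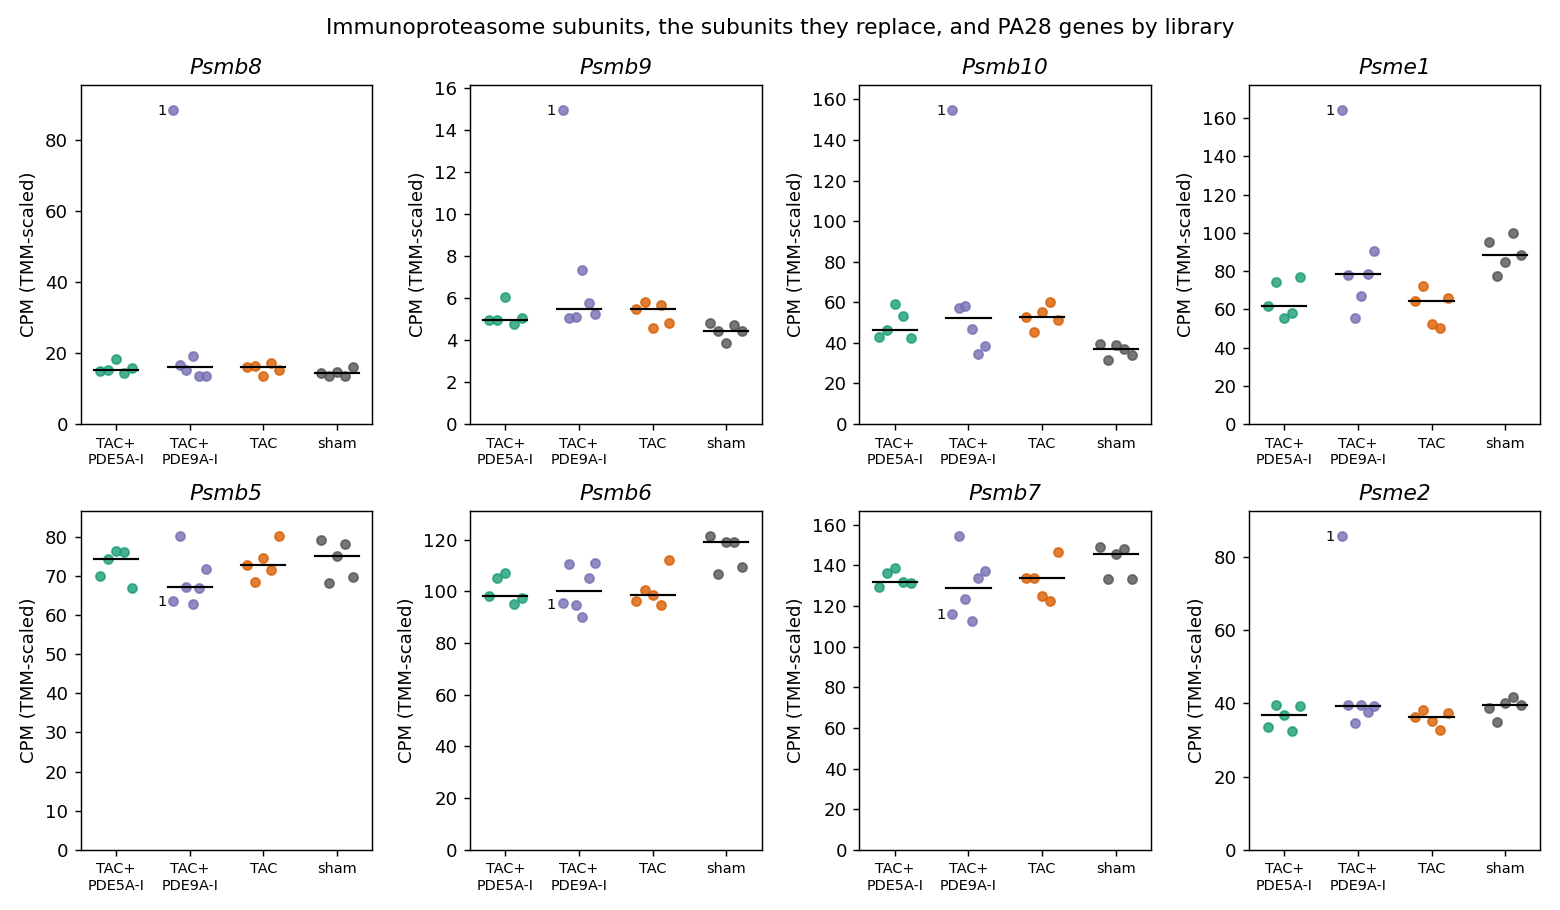
TMM-scaled CPM (vertical axis, from 0) of the immunoproteasome genes Psmb8, Psmb9 and Psmb10, the subunits they replace (Psmb5, Psmb6 and Psmb7) and the PA28 genes Psme1 and Psme2 in every library; points are libraries, horizontal lines group medians and "1" marks TAC+PDE9A-I library 1. That library stands apart at 88.5 CPM of Psmb8. It lies towards the low end of the range for Psmb5, Psmb6 and Psmb7, where 19, 16 and 19 of the 20 others are at or above it. Psmb10 is higher and Psme1 lower in all TAC than in all sham libraries.

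Of 14 genes of MHC class I antigen processing, 11 were higher in TAC+PDE9A-I library 1 than in all 20 other libraries. The share over all genes tested was not counted. In the other lists read below it was 1 of 11 further proteasome genes and 1 of 9 genes of NRF1 and its control. It was 0 of 12 ubiquitin genes, activating enzymes and shuttle factors. Among the MHC class I exceptions were the chaperones Pdia3 and Calr. Pdia3 was at 113 CPM in library 1, against 109 to 134 CPM in the 5 others of its group. Calr was at 228 CPM in library 1, against 191 to 231 CPM in the 5 others. Tap1 was at 60.6 CPM in TAC+PDE9A-I library 1 and 29.9 CPM in library 4, against 11.9 to 16.6 CPM in the 4 other libraries of the group. The class I heavy chain H2-K1 was at 631 CPM in library 1 and 311 CPM in library 4, against 124 to 154 CPM in the 4 others. The class I transactivator Nlrc5 was at 33.6 CPM in library 1 and 26.4 CPM in library 4, against 8.52 to 10.4 CPM in the 4 others. Library 4 was second to library 1 of the group in Tap1, H2-K1 and Nlrc5. Its Psmb8 (19.1 CPM, against at most 18.5 CPM in the other 3 groups) and Psmb9 (7.31 CPM, against at most 6.02 CPM) were also second, while its Psmb10 (47.0 CPM) and Psme1 (67.2 CPM) lay within the range of the TAC libraries.

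Psmb8, Psmb9 and Psmb10 were higher in library 1 than in library 4, while leukocyte markers were high in both libraries. Summed over 6 markers (Ptprc, Coro1a, Laptm5, Cd52, Rac2 and Lcp1) they reached 165 CPM in library 1 and 182 CPM in library 4, against 67.2 to 103 CPM in the 4 other TAC+PDE9A-I libraries and 94.5 to 152 CPM in TAC libraries. Ptprc, the pan-leukocyte marker, was at 33.3 CPM in library 1 and 32.5 CPM in library 4. The other 19 libraries had 10.9 to 23.7 CPM of Ptprc. Of the 6 markers, Cd52 and Rac2 were lower in library 4 than in library 1: Cd52 was at 7.78 CPM in library 1 and 4.93 CPM in library 4, and Rac2 at 6.90 CPM in library 1 and 4.32 CPM in library 4. Summed over 7 T and NK cell markers the level was 3.31 CPM in library 1 and 4.62 CPM in library 4, against 1.42 to 2.22 CPM in the 4 others, and Cd3e, Cd3d, Cd3g and Klrb1c were at 0 in at least 1 library of the study. Summed over 7 macrophage markers it was 308 CPM in library 1 and 338 CPM in library 4, against 211 to 299 CPM in the 4 others. TAC libraries held 265 to 312 CPM of these, so library 1 was within their range. Of that list Cd163 went the other way, at 12.8 CPM in library 1 and 7.62 CPM in library 4, against 16.6 to 25.1 CPM in the 4 others. Csf1r and Mrc1 in library 1 lay within the range of the 4 others. Over 5 B cell markers the sum was 2.45 CPM in library 1 and 2.61 CPM in library 4, against 2.05 to 2.91 CPM in the 4 others. The part of leukocyte RNA, or of the Rn45s share given above, in the immunoproteasome levels of library 1 was not tested.

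**Figure D4:**
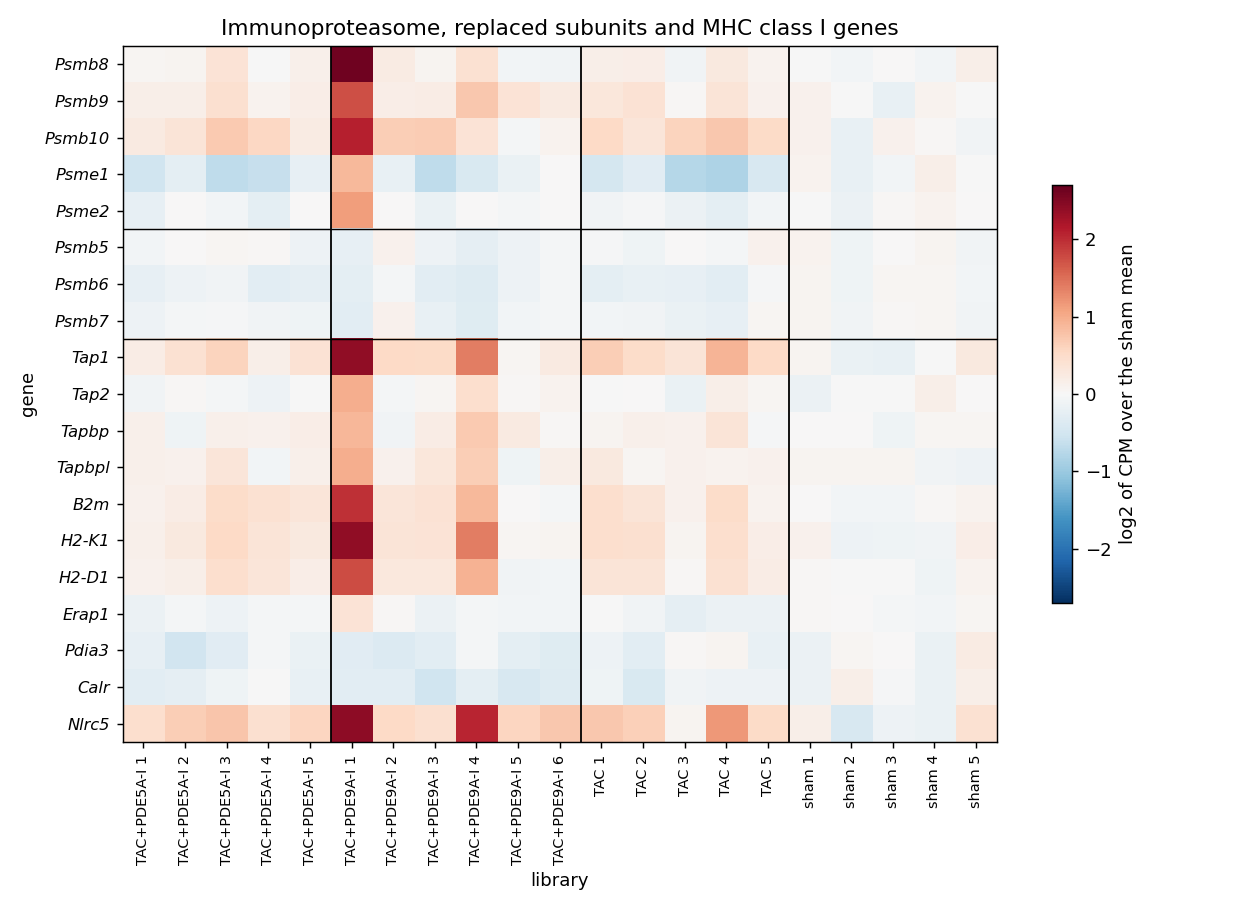
Log2 of CPM over the sham mean (colour) in every library (columns) for the immunoproteasome and PA28 genes (top), the subunits they replace (middle) and 11 genes of MHC class I peptide loading and presentation (bottom). TAC+PDE9A-I library 1 is dark red for Psmb8 and Psmb10, Tap1, H2-K1 and Nlrc5, and library 4 is raised for Tap1, H2-K1 and Nlrc5, with Psmb8 at 19.1 CPM and Psmb10 at 47.0 CPM.

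Without library 1, the PDE9A inhibitor estimates against TAC were near 0 for the immunoproteasome genes. They were -0.004 for Psmb8 (SE 0.095), 0.11 for Psmb9 (SE 0.111) and -0.17 for Psmb10 (SE 0.130), with adjusted p of 0.994, 0.704 and 0.624. In the 5 remaining TAC+PDE9A-I libraries Psmb8 had a lowest value of 13.5, a median of 15.2 and a highest value of 19.1 CPM, against 13.5 to 17.2 CPM in TAC libraries. Psmb10 had 34.7, 47.0 and 58.2 CPM as the lowest, median and highest values, against 45.5 to 60.2 CPM in TAC libraries. The estimate for Psme1 against TAC was 0.28 without library 1 (SE 0.128, adjusted p = 0.440), against 0.55 with it.

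TAC+PDE5A-I against TAC+PDE9A-I sets the inhibitors, which differ in the phosphodiesterase they inhibit, beside each other at the same duration; doses are not given, so they cannot be matched here. No proteasome gene was called by edgeR or by DESeq2, with 0.00707% of all genes tested called by edgeR and 35 of all 14135 called by DESeq2. The unadjusted p of edgeR was under 0.05 for 7 of the 48, beside 10.4% of all genes tested. The estimates for the immunoproteasome genes were -0.82 for Psmb8 (95% interval -1.62 to -0.02, adjusted p = 0.463), -0.49 for Psmb9 (-0.94 to -0.04, adjusted p = 0.435) and -0.41 for Psmb10 (-0.98 to 0.15, adjusted p = 0.625). Without TAC+PDE9A-I library 1 they were 0.01, -0.14 and 0.05. Psma5 was at 57.2 ± 3.79 CPM in TAC+PDE5A-I hearts and 50.5 ± 3.97 CPM in TAC+PDE9A-I hearts (log2 fold change 0.18, 95% interval 0.05 to 0.31, adjusted p = 0.355), the lowest unadjusted p of the 48, and was named for it. Psmf1, which encodes the inhibitor PI31, was the 1 proteasome gene whose groups did not overlap, beside 0.757% of all genes tested, and was named for this. It was at 17.3 ± 0.42 CPM in TAC+PDE5A-I hearts and 18.7 ± 0.53 CPM in TAC+PDE9A-I hearts (adjusted p = 0.448).

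The inhibitor groups were also set against sham, with the same sham libraries as in TAC against sham. In TAC+PDE5A-I hearts 1 proteasome gene rose and 2 fell, 6.25% of the 48, and 14.6% of all genes tested were called (6.81% higher and 7.80% lower). The groups did not overlap for 7 of the 48 and for 15.6% of all genes tested, and the unadjusted p was under 0.05 for 11 of the 48 and for 32.8% of all. Psma5 rose to 57.2 ± 3.79 CPM in TAC+PDE5A-I hearts, against 48.9 ± 2.88 CPM in sham hearts, without overlap (log2 fold change 0.23, adjusted p = 0.0272). Psmc2 fell to 75.9 ± 4.16 CPM in TAC+PDE5A-I hearts, against 86.4 ± 1.52 CPM in sham hearts, also without overlap (-0.19, adjusted p = 0.0378). Psmg1 fell to 10.9 ± 1.09 CPM in TAC+PDE5A-I hearts, against 13.7 ± 1.24 CPM in sham hearts (-0.34, adjusted p = 0.0413). With sham library 2 or 5, or TAC+PDE5A-I library 3 or 4, left out Psma5 was not called, and Psmc2 and Psmg1 were each called in 3 of the 11 fits with 1 library left out. With a term for the ear tag series none of the 3 was called (adjusted p = 0.143 for Psma5, 0.134 for Psmc2 and 0.245 for Psmg1, the last with an estimate of -0.25). Only the 600 series held libraries of both groups, and over all genes 276 of 14135 were called with that term. With no filter on low counts Psmc2 and Psmg1 were not called, beside 1637 of 18888 genes that were. Psmb8 had an estimate of 0.13 against sham, Psmb9 of 0.21 and Psmb10 of 0.43 (adjusted p = 0.848, 0.544 and 0.293). The TAC+PDE5A-I libraries held 42.5 to 59.4 CPM of Psmb10, against 31.6 to 39.4 CPM in sham libraries, and without TAC+PDE9A-I library 1 in the fit Psmb10 was called higher (0.43, adjusted p = 0.0363) and Psme1 lower (-0.45, adjusted p = 0.0285). Psmb5, Psmb6 and Psmb7 had estimates of -0.03, -0.19 and -0.09, none called by edgeR. Psmb6, at an adjusted p of 0.0515, was called lower by DESeq2 (adjusted p = 0.0270) and by edgeR on the groups compared alone (adjusted p = 0.0278).

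In TAC+PDE9A-I hearts no proteasome gene was called against sham by edgeR, while 3.82% of all genes tested were (2.17% higher and 1.65% lower). The unadjusted p was under 0.05 for 13 of the 48 and for 27.2% of all genes tested. DESeq2 called 2 of the 48 higher and 4 lower, beside 1550 of all 14135 genes tested. The estimates were 0.95 for Psmb8 (adjusted p = 0.125), 0.70 for Psmb9 (adjusted p = 0.0664) and 0.85 for Psmb10 (adjusted p = 0.0731), and -0.11, -0.19 and -0.13 for Psmb5, Psmb6 and Psmb7. The 2 genes that DESeq2 called higher were Psmb9 and Psmb10 (adjusted p = 0.0279 and 0.0243), and edgeR called both with the replicate block (adjusted p = 0.0325 and 0.0370). Replicate number 6 occurs in this group alone, so the block in effect leaves out library 6. With TAC+PDE9A-I library 6 left out edgeR called both as well (adjusted p = 0.0324 and 0.0312). Without library 1 the edgeR estimates for Psmb8, Psmb9 and Psmb10 were 0.12, 0.35 and 0.38 (adjusted p = 0.453, 0.0888 and 0.110). The TAC+PDE9A-I libraries other than library 1 held 5.04 to 7.31 CPM of Psmb9, against 3.87 to 4.80 CPM in sham libraries, so Psmb9 did not overlap with sham without library 1 either; it was the 1 proteasome gene whose groups did not overlap, beside 3.47% of all genes tested. Psmb10 did overlap, since libraries 5 and 6, at 34.7 and 38.5 CPM, lay inside the sham range of 31.6 to 39.4 CPM.

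**Figure D5:**
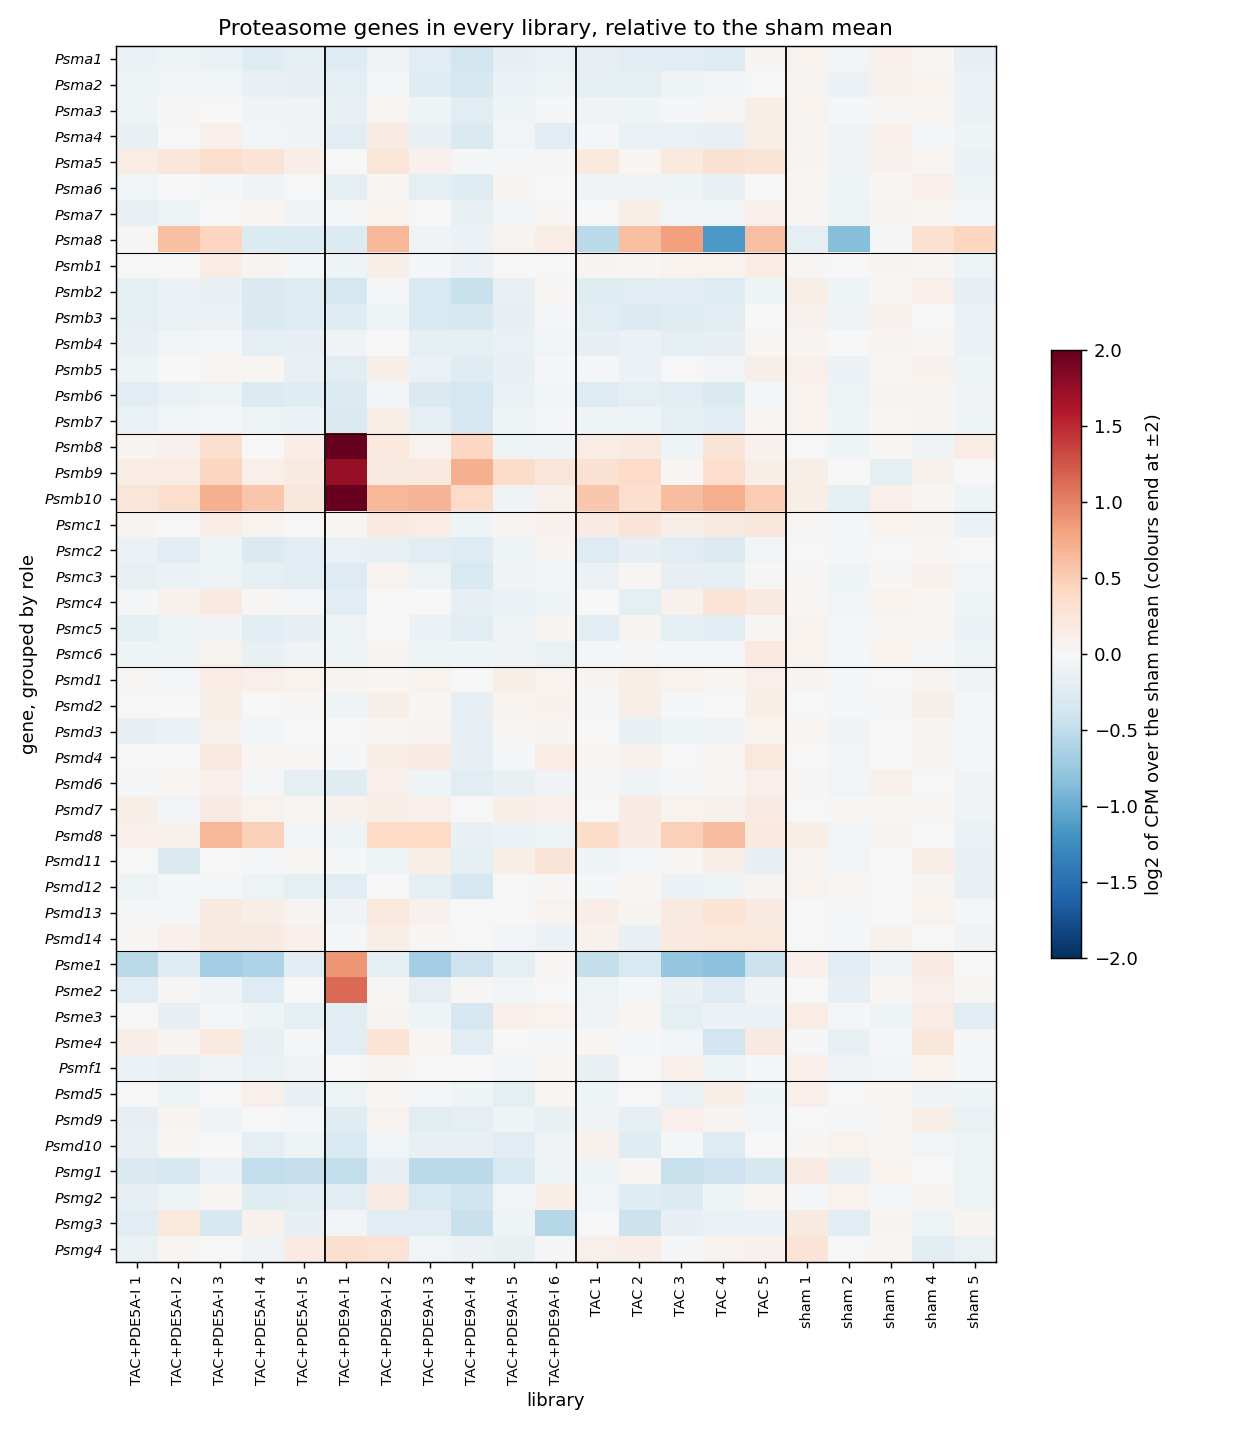
Log2 of CPM over the sham mean (colour, ending at ±2) for the proteasome genes by role (down the page, without the low-count Psmb11) in every library (columns). Most core and regulatory particle genes are pale in every library, Psmb8, Psmb9, Psmb10, Psme1 and Psme2 are red in TAC+PDE9A-I library 1, and Psme1 is blue in every TAC library.

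Psmd8, Psmb10 and Psme1 had their extremes in the same libraries within TAC and within TAC+PDE5A-I, and only in part within TAC+PDE9A-I. In TAC libraries 3 and 4, Psmd8 was highest (129.7 and 144 CPM), Psmb10 was highest (55.3 and 60.2 CPM) and Psme1 was lowest (52.2 and 50.3 CPM). In TAC+PDE5A-I libraries 3 and 4, Psmd8 was again highest (148 and 130.4 CPM), Psmb10 highest (59.4 and 53.4 CPM) and Psme1 lowest (55.5 and 58.3 CPM). In TAC+PDE9A-I hearts Psmd8 was highest in libraries 2 and 3 (123 CPM in each). Psmb10 was highest in library 1 (155 CPM), followed by libraries 3 and 2 (58.2 and 57.2 CPM). Psme1 was lowest in libraries 3 and 4 (55.6 and 67.2 CPM). Some cell type markers moved with the pattern, and others of the same lists did not. Postn, a gene of activated fibroblasts, was at 2187 and 2812 CPM in TAC libraries 3 and 4, against 279 to 952 CPM in the other TAC libraries, and the cardiomyocyte gene Myh6 at 23561 and 16692 CPM in TAC libraries 3 and 4, against 26188 to 38230 CPM in the others. In TAC+PDE5A-I libraries 3 and 4 Postn was likewise the highest of its group (764 and 1643 CPM) and Myh6 the lowest (29266 and 21683 CPM). By contrast, the fibroblast marker Dcn was at 1103 and 965 CPM in TAC libraries 3 and 4, against 923 to 1104 CPM in the other TAC libraries. The cardiomyocyte marker Ttn was at 97800 and 76357 CPM in TAC libraries 3 and 4, against 86902 to 99597.5 CPM in the others. In TAC+PDE5A-I hearts Ttn was lowest in library 2 (77243 CPM). The part of cell make-up in the levels of Psmd8, Psmb10 and Psme1 was not tested. These genes and markers were chosen after their values were seen. In sham libraries Psmd8 covered 85.0 to 102 CPM and Psme1 77.3 to 100.1 CPM, and sham library 1, the highest for Psmd8, was at 95.2 CPM of Psme1.

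The calls among genes around the proteasome in TAC against sham are read beside the 25.2% of all genes tested that edgeR called. The DESeq2 calls are read beside the 4152 of 14135 genes that it called. Of 11 further proteasome genes tested (among them the ubiquitin receptor Adrm1, the deubiquitinases Uchl5 and Usp14 and the assembly factor Pomp) none was called by edgeR or DESeq2, with an unadjusted p under 0.05 for 1 and a median log2 fold change of -0.13, beside -0.00 over all genes tested. Of 9 genes of NRF1 and its control, 2 fell and none rose. These were the ubiquitin ligase subunit Fbxw7, at 70.9 ± 6.93 CPM in TAC hearts and 90.5 ± 4.27 CPM in sham hearts (-0.35, adjusted p = 0.0127), and the ligase Syvn1, at 10.2 ± 0.830 CPM in TAC hearts and 12.4 ± 0.396 CPM in sham hearts (-0.28, adjusted p = 0.04999). Of 12 ubiquitin genes, activating enzymes and shuttle factors 1 rose, the autophagy receptor Sqstm1, at 492 ± 35.6 CPM in TAC hearts and 406 ± 46.6 CPM in sham hearts (0.28, adjusted p = 0.0318), and none fell; DESeq2 called 1 of the 12 higher and 2 lower. Of the 14 MHC class I genes none was called by edgeR or DESeq2 and 0 had an unadjusted p under 0.05, with a median of 0.13.

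The same lists were read in the inhibitor groups against sham. In TAC+PDE5A-I hearts, where 14.6% of all genes tested were called, 1 of the 11 further proteasome genes fell, Shfm1, a small regulatory particle subunit (-0.20). Of the 12 ubiquitin genes, activating enzymes and shuttle factors 2 rose and 2 fell, and Sqstm1, called in TAC against sham too, was among those that rose (0.29). In TAC+PDE9A-I hearts, where 3.82% of all genes tested were called, Ublcp1, a phosphatase that acts on the proteasome, fell (-0.31). Of the 14 MHC class I genes the chaperone Calr fell (-0.35) and Nlrc5 rose (1.37, SE 0.329, adjusted p = 0.0317). The unadjusted p was under 0.05 for 13 of these 14, beside 27.2% of all genes tested. DESeq2 called 6 of the 14 higher and 2 lower, beside 1550 of all 14135 genes tested. Library 1 leads most of this list, and library 4 is second for Nlrc5, as the values above show.

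No gene of these 4 lists was called by edgeR or DESeq2 in the 3 comparisons among the TAC groups. Of all 14135 genes tested, DESeq2 called 8 in TAC+PDE5A-I against TAC and 33 in TAC+PDE9A-I against TAC. It called 35 in TAC+PDE5A-I against TAC+PDE9A-I. In the MHC class I list the unadjusted p was under 0.05 for 6 of 14 in TAC+PDE9A-I against TAC (median log2 fold change 0.32), beside 14.6% of all genes tested. It was under 0.05 for 8 of 14 in TAC+PDE5A-I against TAC+PDE9A-I (median -0.35), beside 10.4% of all genes tested.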

How the data were processed

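Left ventricle RNA was sequenced in 21 libraries, grouped by the labels, from 1 animal each. The authors deposited expected counts from RSEM for each symbol, not scaled between libraries. The tools CASAVA 1.8.4, HISAT2 2.0.5, RSEM 1.3.0 and DESeq2 1.18.1, and the build mm10, come from the submitters' processing notes, which assign them no role. Neither the annotation behind the symbols nor the use of strand in counting is stated in the sources used here. Of the deposited expected counts 19.0% had decimals, and 27 entries had dates as symbols and were named nowhere.

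The expected counts were rounded, filtered with filterByExpr by group and scaled by TMM. A quasi-likelihood model with 1 mean per group was fitted over all libraries in edgeR 4.0.16 (R 4.3.3, limma 3.58.1). Benjamini-Hochberg adjustment ran over the 14135 genes tested, with calls at an adjusted p under 0.05; intervals are 95% intervals of the log2 fold change. The fits were tested on simulated data. Alternatives were DESeq2 1.42.0, other size factors, no filter, only the groups compared, terms for ear tag series and replicate number, and libraries left out. Python 3.11.15, pandas 2.3.3, numpy 2.4.6 and matplotlib 3.10.9 made tables and figures. Gene positions and lengths are from GENCODE M21 (GRCm38).

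Values are given for Psmb5 to Psmb10 in every comparison, up to 6 called proteasome genes per direction, the largest estimate of each role in TAC against sham, and up to 4 called genes of each partner list, some of which are not reported here. The proteasome genes and the lists were chosen with earlier results of these data known. The labels do not say more of the animals than an ear tag each. The mean chi-square per gene between libraries of 1 group was at least 12.1 in all 45 pairs, so each library was counted on its own.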

Additional observations from a re-analysis of the deposited data

Results flagged for a closer look

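Of 192 groups (48 genes in 4 groups), 20 held a library far from the others by Dixon's criterion; chance alone marks about 1 group in 20. In 5 of them the library was TAC+PDE9A-I library 1: Psmb8 at 88.5 CPM (others 13.5 to 19.1), Psmb9 at 14.9 CPM (5.04 to 7.31), Psmb10 at 155 CPM (34.7 to 58.2), Psme1 at 164 CPM (55.6 to 90.3) and Psme2 at 85.8 CPM (34.6 to 39.6). TAC library 5 was the highest of its group for Psma1 at 100.3 CPM (others 81.4 to 86.7), Psmb2 at 73.8 CPM (64.9 to 66.9), Psmb3 at 71.0 CPM (58.6 to 60.3), Psmb4 at 118 CPM (100.7 to 105) and Psmc6 at 129 CPM (109 to 110.2).

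TAC+PDE5A-I library 3 was high for Psmb9 at 6.02 CPM (others 4.77 to 5.03), Psmd2 at 315 CPM (287.5 to 294) and Psmd4 at 108 CPM (92.6 to 95.8). TAC+PDE9A-I library 2 was high for Psma8 at 1.50 CPM (0.782 to 1.05) and Psmc6 at 118 CPM (103 to 108). TAC+PDE9A-I library 4 was low for Psmd3 at 77.3 CPM (87.8 to 90.6) and Psmd7 at 67.9 CPM (72.1 to 73.8). TAC+PDE5A-I library 2 was low for Psmd11 at 59.4 CPM (71.0 to 74.2). Sham library 4 was high for Psmd2 at 313 CPM (281 to 287) and Psme4 at 1017 CPM (791 to 854).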

How the results depend on the processing

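In TAC against sham, 5 proteasome genes rose with only the groups compared and 1 with a term for the ear tag series. Without TAC+PDE9A-I libraries 1 and 4, 6 rose. In the same comparison 5 fell with DESeq2, 1 with the ear tag series and 5 without those libraries. Calls over all genes moved too, from 3558 of 14135 to 3925 of 13761 with only the groups compared. They were 2681 of 14135 with the ear tag series, 4254 of 14185 without those libraries and 4152 of 14135 with DESeq2. In TAC+PDE5A-I against sham, 2 rose with only the groups compared, 0 with the ear tag series and 2 without those libraries. There 0 fell with no filter on low counts, 4 with DESeq2 and 7 with only the groups compared. With the ear tag series 0 fell, and 5 without those libraries. Over all genes 2066 of 14135 were called, 1637 of 18888 with no filter and 2806 of 14135 with DESeq2. The calls were 3440 of 13881 with only the groups compared, 276 of 14135 with the ear tag series and 2656 of 14185 without those libraries. In TAC+PDE9A-I against sham, 2 rose and 4 fell with DESeq2, against none with edgeR. Over all 14135 genes tested there, DESeq2 called 1550 and edgeR 540. Leaving out 1 library at a time gave 1 to 5 higher and 0 to 6 lower in TAC against sham. It gave 0 to 2 and 0 to 4 in TAC+PDE5A-I against sham, and 0 to 2 and 0 to 6 in TAC+PDE9A-I against sham. The comparisons among TAC groups had 0 throughout, where such fits called at most 46 of all genes tested. Over all genes, such fits called 1781 to 4440 in TAC against sham. They called 580 to 2274 in TAC+PDE5A-I against sham and 21 to 1814 in TAC+PDE9A-I against sham. In TAC against sham 0 fell without TAC library 1, 3 or 4, 1 without sham library 1, 3 or 4, 5 without sham library 5 and 6 without TAC library 5; 1 rose without sham library 2 or 5 or TAC library 4, and 5 without TAC library 2. Most libraries were not closest to a library of their own replicate number in another group: 3 of 21 were. Same-numbered libraries correlated above 0.1 in 8 of 30 pairs, none of which held a sham library. The highest r was 0.564, for TAC library 4 with TAC+PDE5A-I library 4. With the replicate block 4 rose and 4 fell in TAC against sham, and 1 and 2 in TAC+PDE5A-I against sham. In TAC+PDE9A-I against sham 2 rose and 6 fell, where the block in effect leaves out library 6, the only library with that number. Over all 14135 genes tested the block called 3896, 2575 and 2241 in these comparisons. By coding length, Psmb8 was 18.6% of Psmb5, Psmb9 4.19% of Psmb6 and Psmb10 25.9% of Psmb7 in sham hearts; by exon union 5.17%, 1.97% and 51.3%. Of 1056 alternative values of 59 named fold changes, 955 stayed on the same side of the threshold, 56 fell short of it and 45 newly passed it. The number of calls that turned round was 0, but some estimates that were not called changed sign. With 1 library left out, that of Psmb10 in TAC+PDE9A-I against TAC ran from -0.17 to 0.42. That of Psme1 in TAC+PDE9A-I against sham ran from -0.27 to 0.11. The cause of these shifts was not tested. The length of the RefSeq protein was not used here.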
